A study of Mus musculus with 5 samples.

Results

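The regions described here are 7247 summits of the Input library of Th9 cells that lie inside genes and away from the summits of the other 4 libraries analysed here. They were selected from the Input list on 2 measured properties. No summit of the PU.1, BATF, goat Ig or rabbit Ig list lay within 500 bp of them, and their position fell between the start and the end of a gene of GENCODE M21 on chromosomes 1 to 19 or X of the mouse genome (GRCm38, mm10). They make up 7247 of the 25194 summits of the Input list, and of 38651 summits in all 5 lists. The Input list had 24853 summits on these chromosomes. Of these, 3178 lay within 500 bp of a summit of another list (1300 of them inside genes) and 14428 lay away from the other lists but between genes. These 2 classes serve as comparisons. The absence of other lists and the place inside genes are thus not findings.

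All libraries came from naive CD4 T cells isolated from spleen and nodes of wild-type C57/Bl6j mice aged 7 weeks. The cells were cultured on plates coated with CD3 and CD28 antibodies under Th9 conditions, with IL-4 (20 ng/ml), TGF-β (2 ng/ml) and an antibody that blocks IFNγ. Analysed here was 1 library each from chromatin precipitated with antibodies against PU.1 or BATF, from chromatin precipitated with goat or rabbit control immunoglobulin (Ig), and from the Input, which was not precipitated. No library was repeated, so no difference between libraries was tested and no p-value is given. The percentages carry exact Clopper-Pearson 95% intervals for counting error. Copies of a repeat resemble each other and are not independent, and the intervals do not cover that. Read totals are not part of the lists and the depth is unknown. The labels name a MiSeq sequencer and the methods a NextSeq, and they also differ in the number of cells per chromatin preparation. The lists hold no marker of the cell type.

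An Input is sheared, cross-linked chromatin sequenced without an antibody, and it serves as the background of a chromatin immunoprecipitation experiment. Summits of an Input mark places where reads pile up without any antibody. LINE-1 elements are retrotransposons that copy themselves through RNA. A full element carries a promoter followed by ORF1, which codes for an RNA-binding protein, and ORF2, which codes for an endonuclease and reverse transcriptase. Most genomic copies lack the 5′ end, and mouse introns hold many of them.

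The 200 bp around each summit were compared with one another, and windows that matched at 80% identity or more over at least 100 bp were grouped into families. This gave 38 families of at least 20 windows with 5565 members (76.8%, 95% interval 75.8 to 77.8%). Only members were grouped, so this share has no background value beside it. The first 4 sequences are the windows with the most matches in the 4 largest families, shown because these families alone hold 776, 619, 397 and 393 members. Of the runs of 20 bases in each of these windows, capitals mark the one found in the most windows of its family. This run was found unchanged in 167 windows of family 1, 312 of family 2, 135 of family 3 and 155 of family 4. The fifth window is the highest-scoring intronic member that holds the codons of the FADD motif of reverse transcriptases, and the last is the highest-scoring member in a coding exon, with the codons of a zinc finger linker. The codons are in capitals in both. All are reference sequence of GRCm38, 5′ to 3′, on the strand named.
Family 1, intron of Nt5dc1, chr10:34346243-34346442, minus strand: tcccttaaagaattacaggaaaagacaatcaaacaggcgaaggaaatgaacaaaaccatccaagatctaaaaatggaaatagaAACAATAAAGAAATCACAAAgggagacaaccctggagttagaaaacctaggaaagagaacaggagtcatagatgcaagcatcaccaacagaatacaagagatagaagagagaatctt
Family 2, intron of Ctnna3, chr10:63563706-63563905, minus strand: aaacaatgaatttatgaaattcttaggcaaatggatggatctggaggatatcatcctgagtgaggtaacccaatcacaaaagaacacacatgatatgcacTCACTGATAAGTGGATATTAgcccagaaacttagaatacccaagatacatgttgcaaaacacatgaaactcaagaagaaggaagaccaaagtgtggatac
Family 3, intron of Slc25a25, chr2:32434772-32434971, plus strand: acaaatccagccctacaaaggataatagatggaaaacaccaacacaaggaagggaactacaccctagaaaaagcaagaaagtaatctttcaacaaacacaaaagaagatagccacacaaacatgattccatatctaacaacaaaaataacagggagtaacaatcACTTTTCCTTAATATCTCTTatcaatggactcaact
Family 4, intron of Pde3b, chr7:114501771-114501970, minus strand: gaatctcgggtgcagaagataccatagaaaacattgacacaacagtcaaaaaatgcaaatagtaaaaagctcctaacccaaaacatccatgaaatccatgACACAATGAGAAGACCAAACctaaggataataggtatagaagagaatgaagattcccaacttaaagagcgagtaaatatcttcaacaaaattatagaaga
Reverse transcriptase motif, intron of Cdh12, chr15:20620264-20620463, minus strand: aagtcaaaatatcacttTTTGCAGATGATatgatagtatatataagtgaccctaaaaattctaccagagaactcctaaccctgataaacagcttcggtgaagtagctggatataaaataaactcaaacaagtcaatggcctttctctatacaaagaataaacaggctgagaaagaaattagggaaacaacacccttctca
Zinc finger linker, coding exon of Gm14412, chr2:177314986-177315185, minus strand: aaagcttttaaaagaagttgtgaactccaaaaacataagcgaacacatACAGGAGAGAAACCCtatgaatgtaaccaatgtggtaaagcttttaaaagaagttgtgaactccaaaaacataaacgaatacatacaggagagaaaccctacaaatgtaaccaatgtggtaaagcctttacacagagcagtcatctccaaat

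Most members matched LINE-1 sequence at 80% identity. To place them, the genome was searched for intact units, an open reading frame of at least 1200 codons preceded by another of at least 300 codons. The unit that the most members matched served as the reference. It lies at chr11:51018908-51023867 on the minus strand, inside the Olfr54 gene on the plus strand, and is 4960 bp long. Its ORF1 has 357 codons, its ORF2 has 1281 codons, and 40 bp separate them. With 1500 bp before and 1000 bp after it, this unit matched 4910 of the 7247 member windows (67.8%, 95% interval 66.7 to 68.8%). Positions placed every 2500 bp through genes gave the background, and 25540 of 484752 such positions (5.27%) matched. The share depends on the identity asked for, and at 90% identity 2177 members (30.04%) and 3.15% of the background matched, while at 70% it was 5806 members (80.1%) and 6.01%. The unit was picked on its matches to the members. A second unit, in Dpp6 with an ORF1 of 371 codons and picked in the same way among units of another ORF1 length, matched 66.5% of the members and 5.41% of the background positions. Between genes the share was higher, 75.1% (95% interval 74.4 to 75.8%) of the Input-only summits, and near another list it was 46.1% (44.4 to 47.9%), or 37.2% (34.5 to 39.8%) for those inside genes. Background positions were set in genes only, so the share between genes has no background of its own. In density, genic sequence that matched the unit held 76.9 members per Mb and other genic sequence held 2.04 per Mb.

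The members that did not match the unit at 80% identity were of several kinds. Simple repeats, in which over 50% of the bases recur at a fixed period of up to 6 bp, made up 740 members (10.2%), of which 487 did not match the unit (6.72% of all members). Another 1454 (20.1%) lay in sequence that the reference writes mostly in lower case, its mark for repeats, and 396 (5.46%) lay in mostly unmasked sequence. With those on the unit counted, 94.1% of all members lay in mostly lower-case sequence. In the genic background, 2.32% of the positions were simple repeats, and 2.26% were simple repeats outside the unit. Other mostly lower-case sequence held 13.7% of these positions, and 78.7% were of the mostly unmasked kind. Between genes, 5.89% of the Input-only summits were simple repeats, and 3.4% were simple repeats outside the unit. Other mostly lower-case sequence held 19.03% of these summits, and 2.46% lay in mostly unmasked sequence. The mean GC content of member windows was 36.2% ± 5.03 (SD over windows), against 42.8% ± 8.12 in the background. Summits near another list differed in kind, since 42.4% of them were simple repeats outside the unit.

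**Figure D1:**
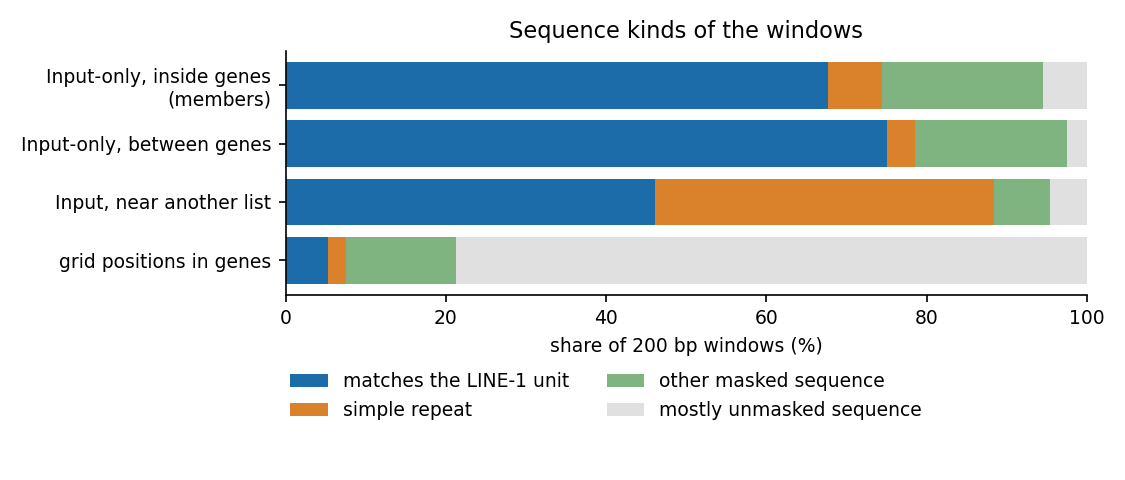
Horizontal bars give the share of 200 bp windows (%) in each of 4 sequence kinds, for the members, Input-only summits between genes, Input summits near another list, and regular positions in genes. The part that matches the LINE-1 unit takes 67.8% of the members and 5.27% of the genic positions.

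Along the unit the members gathered at few places. With position 1 at the first base of ORF1, 888 members (18.1% of those that matched) lay at 251 to 500, inside ORF1, where 2.87% of the matching background positions lay. This is 485 members per Mb of matching genic sequence. Families 1 and 4 have their median places here, at 324 and 481. A second place spans the end of ORF1 and the start of ORF2, with family 3 at a median of 1100. At 1001 to 1250 lay 419 members, 8.53% of those that matched, against 2.69% of the matching background positions. Within ORF2, 275 members lay at 2501 to 2750 and 275 at 2751 to 3000, the place of family 5 (median 2723). Each is 5.60% of the matching members, against 2.83% and 3.05% of the matching background positions. The windows with the FADD codons, 96 members that matched the unit, had a median place of 3245. Around it the members were near the background. They were 2.85% of those that matched at 3001 to 3250 and 3.67% at 3251 to 3500, against 3.27% and 3.61%. Family 2 sits at the end of ORF2, at a median of 4924. At 4751 to 5000 lay 473 members, 9.63% of those that matched, near the 7.48% of the matching background positions.

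Other stretches of the same unit were nearly empty. Upstream of ORF1, 235 members lay at -999 to -750, the densest stretch of the profile at 547 per Mb, and the 49 members of family 26, all of which matched the unit, had a median place there at -958. Only 6 members lay between -749 and 0, with 520 background positions. At 4501 to 4750 there were 25 members beside 1713 background positions. Past ORF2, from 5251 to 5750, there were 0 members beside 4621 background positions. By segment, ORF1 held 1550 of the matching members (31.6%, against 11.1% of the background), ORF2 2843 (57.9%, against 59.4%) and the downstream sequence 156 (3.18%, against 26.1%). Input-only summits between genes had the same order of segments, with 34.9% in ORF1, 57.1% in ORF2 and 2.40% downstream.

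**Figure D2:**
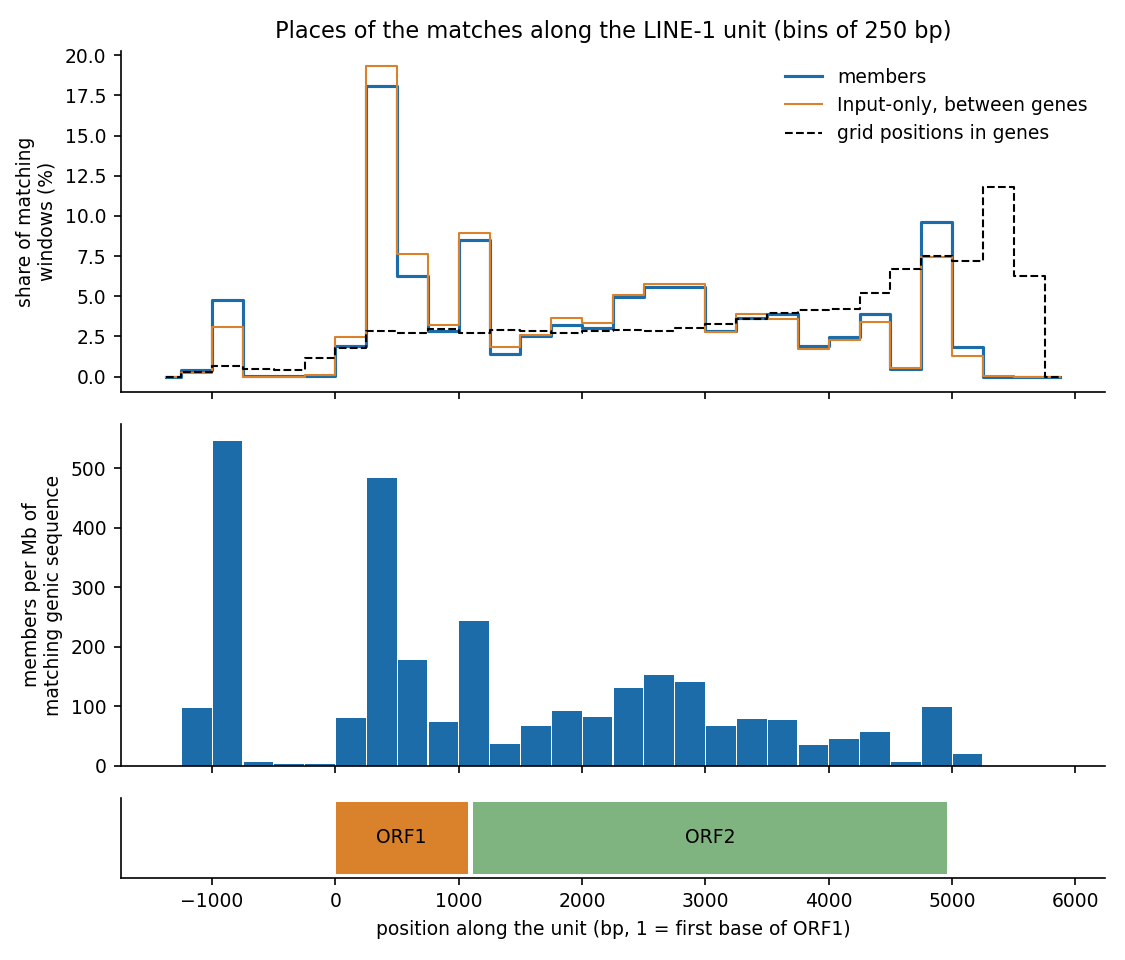
The upper plot gives the share of matching windows (%) in bins of 250 bp along the LINE-1 unit for members, Input-only summits between genes and regular genic positions, the middle plot gives members per Mb of matching genic sequence, for bins with at least 20 background positions, and the boxes show ORF1 and ORF2. The member line peaks at 18.1% at 251 to 500 bp and reaches 0 past 5250 bp.

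Sequence least like the unit held the most members per base, and members closest to it had the highest median score. Identity was measured to this unit only, so it gives the distance from that unit and not the divergence of a copy. The score is the peak caller's own measure of how far a summit stands above background in its library. Matching sequence with 80 to 85% identity to the unit held 136 members per Mb, and sequence with 85 to 90% held 83.1. Above that, density changed little, with 59.2 at 90 to 95%, 53.0 at 95 to 98% and 56.5 at 98 to 100%. The median score went the other way, from 3.85 at 80 to 85% identity to 5.46 at 98 to 100%. Scores above 10 were found at 1.48% of the former and at 11.98% of the latter. Within ORF2 alone, density was 141 per Mb at 80 to 85% identity. It was 58.4, 61.3 and 54.0 per Mb at 90 to 95%, 95 to 98% and 98 to 100%. The median score there was 3.52 at 80 to 85% and 5.46 at 98 to 100%.

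**Figure D3:**
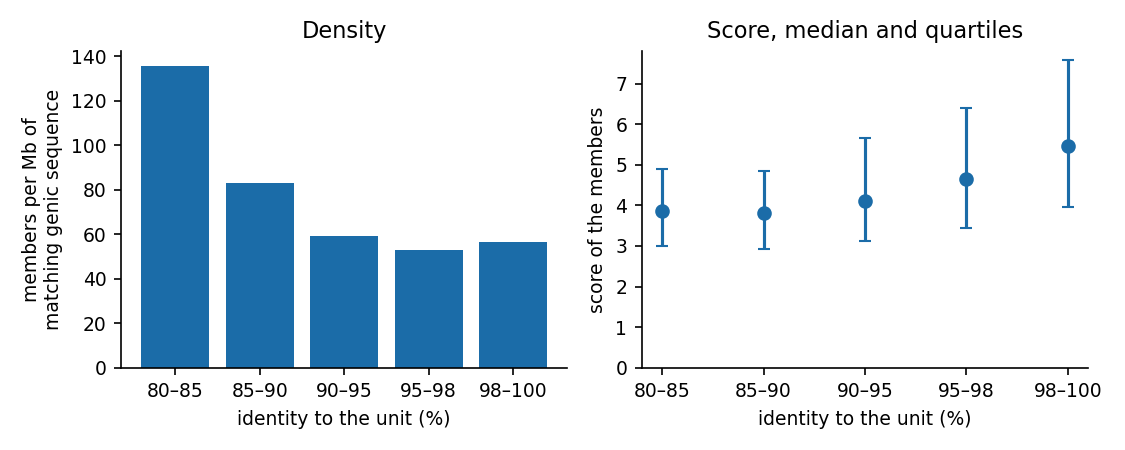
Bars give members per Mb of matching genic sequence and points give the median score with its quartiles, both by identity of the window to the LINE-1 unit (%). Density goes from 136 to 56.5 per Mb from the lowest to the highest identity, while the median score goes from 3.85 to 5.46.

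Intact units were a small part. Of 2999 in the genome, 969 lay inside genes. Their ORF2 had 1281 codons in 2803 units, and their ORF1 had 371 codons in 1889, 357 codons in 687 and 385 codons in 236. An Input-only summit lay in 310 of the 969 genic units (31.99%) and in 677 of the 2030 other units (33.3%). The genic units held 350 members, with a median score of 6.02 against 3.99 for all other members, and 39 units held more than 1.

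Members on LINE-1 sequence ran mostly antisense to their gene. Among the 4765 that matched the unit and whose genes lie on 1 strand only, 3042 were antisense (63.8%, 95% interval 62.5 to 65.2%). This share was above 50% on 20 of 20 chromosomes and ranged from 57.6 to 73.5%. LINE-1 sequence inside genes has the same orientation by itself, with 63.5% (62.9 to 64.1%) of the background positions antisense. In ORF1 the shares were 65.8% for members and 66.0% for the background. Read through the families instead of the unit, the share was 65.2% (63.8 to 66.5%).

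By annotation, 7019 members lay in introns (96.9%, 95% interval 96.4 to 97.2%), which hold 89.5% of genic bases. Exons without coding frame held 114, UTRs 62 and coding exons 52. Density was 6.47 per Mb of introns, 2.27 per Mb of exons without coding frame, 1.54 per Mb of UTRs and 1.43 per Mb of coding exons. The share of lower-case bases has the same order, at 29.7, 20.5, 17.4 and 4.96% of these classes.

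The coding members were mainly zinc finger genes. C2H2 zinc finger proteins bind DNA through a row of fingers, and a short linker with the residues TGEKP joins many neighbouring fingers, so that these genes repeat the same codons many times. Of the 52 members in coding exons, 32 held the codons of this linker in any of the 6 reading frames (61.5%, 95% interval 47.0 to 74.7%). In the background positions in coding exons, 131 of 14795 did (0.885%). Their scores ran from 2.13 over a median of 4.19 to 21.9. On chromosome 4, 15 of them lay within 2.22 Mb that hold a cluster of Zfp genes, and 7 more lay on chromosome 2 and 5 on chromosome 13. The highest scores in coding exons were at Gm14412 (21.9, position 177315086 of chromosome 2), Zfp534 (11.97, position 147674608 of chromosome 4) and Zfp990 (8.89, position 145537460 of chromosome 4). Zfp984 held 2 members in its coding exon, 486 bp apart, with scores of 8.42 and 7.33, and Zfp991 held 2 that were 398 bp apart, with 7.03 and 6.07. Rex2 and Zfp981 followed with 7.80 and 7.42. Among the 10 highest coding members, Angptl6, which codes for a secreted angiopoietin-like protein, was alone without the linker (7.42), in unmasked sequence of 71.5% GC. The other 20 coding members had a median score of 3.37, and 1 of them matched the LINE-1 unit.

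Another 16 members with the linker lay outside coding exons, 9 of them in exons without coding frame, 6 in introns and 1 in a UTR. In total 48 members (0.662%) held it, against 0.0559% of the genic background and 0.0901% of the Input-only summits between genes. Families 35 and 36 contain most of them, with 25 of 28 and 21 of 24 windows. Family 35 had 23 of its 28 members on chromosome 4. Several of these windows have near-identical copies, 95% or more over at least 150 bp, elsewhere in the assembly. Zfp534 had 20 such copies, Zfp984 14 at its higher summit and 0 at the other, and Gm14412 had 0.

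Members were denser on the X chromosome, as were the Input-only summits between genes. It held 456 members, 8.86 per Mb of genes, and the autosomes together held 5.85 per Mb, a ratio of 1.51 (95% interval 1.37 to 1.66). The autosomes ranged from 4.26 per Mb on chromosome 11 to 7.49 on chromosome 1, with a median of 5.61, so that every autosome lay below X. Between genes, X held 14.4 per Mb and the autosomes 10.4. Genes on X have more lower-case bases (35.5%, against 26.1 to 29.4% on the autosomes). Per lower-case base the ratio was 1.19, and chromosomes 1 and 13 with 26.0 and 25.8 members per Mb then lay above X with 24.9. The share of members that matched the LINE-1 unit was 73.2% on X and between 57.1% (chromosome 4) and 73.1% (chromosome 18) on the autosomes. It was below that of the Input-only summits between genes on all chromosomes but chromosome 10, where it was 71.9% against 71.2%.

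**Figure D4:**
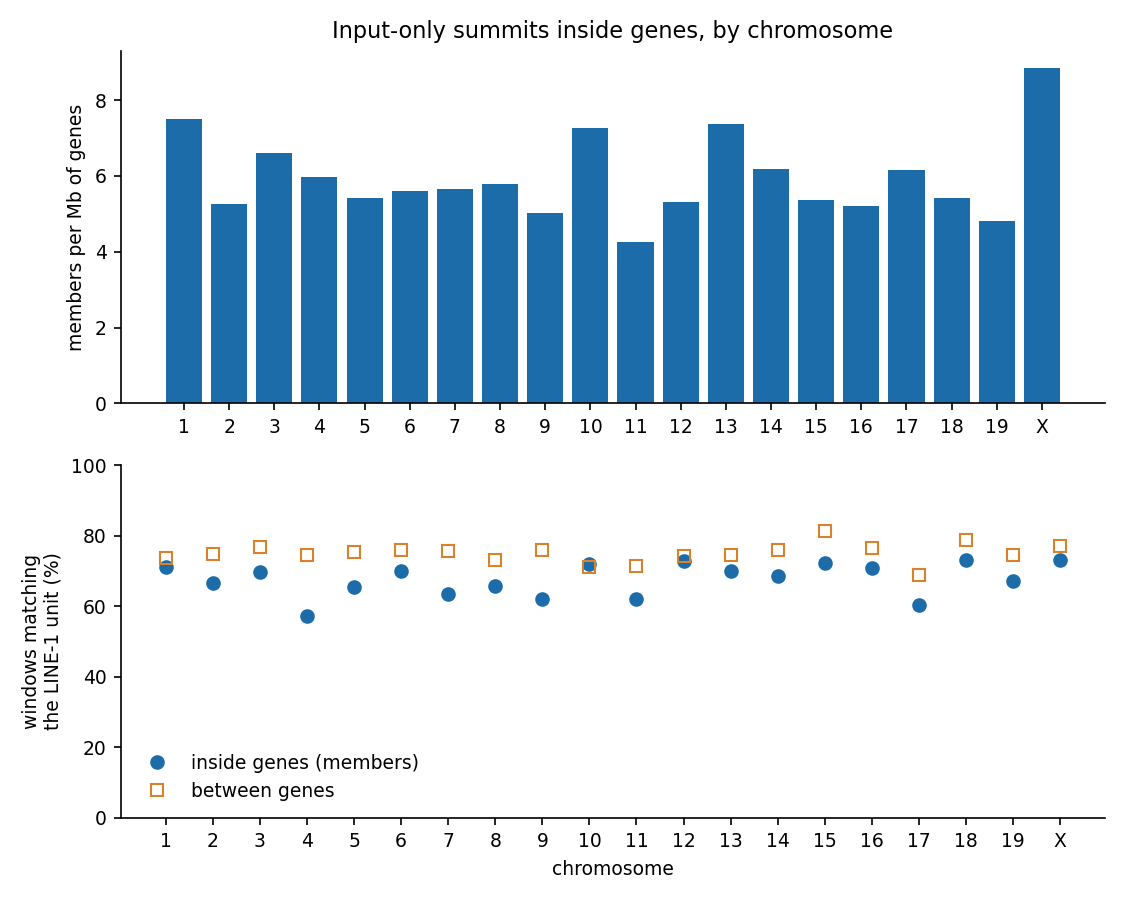
Bars give members per Mb of genes for each chromosome, and points give the share of windows (%) that match the LINE-1 unit for members and for Input-only summits between genes. X stands highest at 8.86 per Mb, and the member share lies above the other on chromosome 10 only.

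Genic sequence as a whole held a smaller share of the Input-only summits than of the bases. Members were 33.4% (95% interval 32.8 to 34.1%) of the Input-only summits, while genes cover 47.3% of all bases and 38.8% of the lower-case bases. Protein-coding genes contained 5722 members, long non-coding RNA genes 1448 and pseudogenes 292, and 441 members lay in more than 1 gene. At least 1 member was found in 2907 of 21755 protein-coding genes (13.4%). Of these, 1732 held exactly 1 and 46 held 10 or more. The genes with a member had a median length of 97651 bp, against 17414 bp for all protein-coding genes.

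The share of genes with a member followed their length. It was 0.754% (58 of 7693) under 10 kb, 19.6% at 30 to 100 kb, 49.6% at 100 to 300 kb and 98.3% (58 of 59) above 1 Mb. Density changed less, from 1.73 members per Mb under 10 kb over 4.83 at 30 to 100 kb to 6.62 at 300 kb to 1 Mb. Long genes hold more LINE-1 sequence, with 0.768% of background positions on the unit under 10 kb and 7.78% above 1 Mb. Per Mb of that sequence the density was 94.7 in the shortest and 62.4 in the longest genes. Members on the unit were 42.2% of those in the shortest genes and 77.2% of those in the longest.

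**Figure D5:**
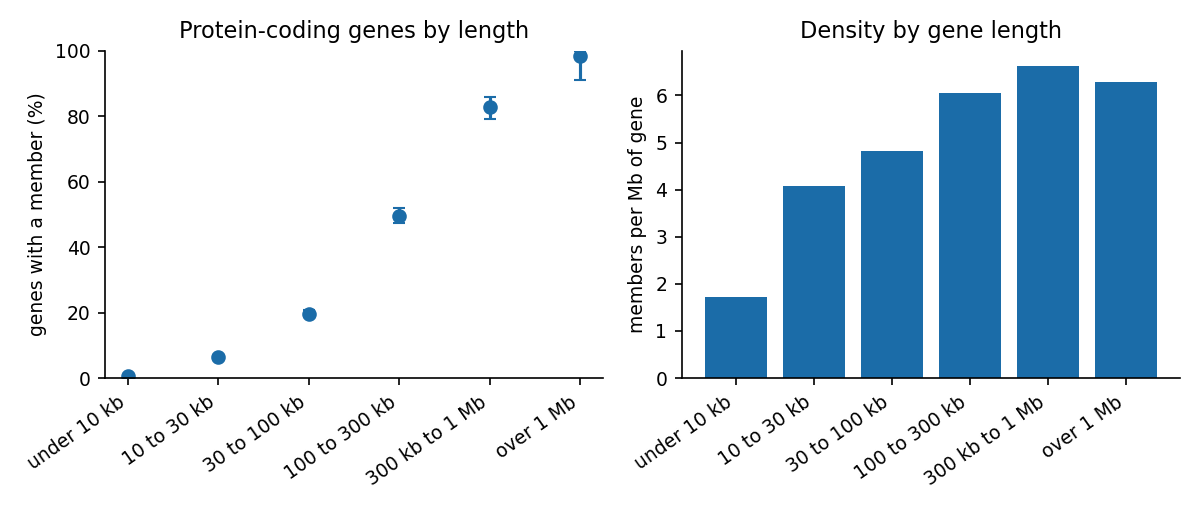
Points give the share of protein-coding genes with at least 1 member (%) with exact 95% intervals and bars give members per Mb of gene, both by gene length. The share goes from 0.754% under 10 kb to 98.3% above 1 Mb, while density goes from 1.73 to 6.28 per Mb.

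The genes with the most members were among the longest of the genome. Cntnap2, a neurexin-like adhesion protein of axons (ENSMUSG00000039419.17, chromosome 6), held 23 members in 2245 kb, 18 of them on the unit, with scores from 1.96 over a median of 4.33 to 11.9. Dmd, which codes for dystrophin, held 21 in 2257 kb on X with scores from 2.07 to 8.64. Nkain2, which codes for a membrane protein that interacts with the sodium pump, also held 21, in 1201 kb, and 20 of them were on the unit, which takes 24.7% of the background positions in that gene. Fhit, Gpc5, Il1rapl2 and Mctp1 followed with 17 each, and Dlg2, Lingo2, Pde4d and Sugct with 16 each. Mctp1 is the shortest of these at 647 kb, with 2.63 members per 100 kb. Dlg2, a scaffold protein of synapses, had the highest single score of these genes, 21.9.

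Per length, other genes led. Among those with at least 5 members, 4930402F06Rik held 5 in 21.6 kb (23.1 per 100 kb), 4 of them on the unit. Sfi1, a centrin-binding protein of the centrosome, held 10 in 61.6 kb on chromosome 11 (16.2 per 100 kb), and 0 of them matched the LINE-1 unit. In order along the chromosome their scores were 2.69, 6.23, 5.14, 9.25, 26.3, 6.84, 10.5, 6.86, 4.91 and 16.4. The last, at position 3193434, lies in a UTR and also inside the neighbouring gene Drg1. Of the other 9, 8 had copies of 95% identity or more elsewhere in the assembly, 1 copy for 7 of these and 2 for the summit at position 3132430. All but 1 of these copies were on scaffolds or patches outside the assembled chromosomes. Als2cr12, B3galt5, Asb12, Grk4, Slco6d1, Boll, Obox1 and Pate2 complete the 10 densest, with 10.2 to 4.17 members per 100 kb, 5 members each except Obox1 with 7. Obox1, an oocyte homeobox gene, had 34.3% of its background positions on the unit.

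Genes of helper T cells were read against the 13.4% of all protein-coding genes and against length. Of 30 cytokine and cytokine receptor genes, 3 held a member (10.0%, 95% interval 2.11 to 26.5%), at 8.39 members per Mb and with a median length of 14.6 kb for the list, and all 3 are receptor genes. Of all protein-coding genes of 10 to 30 kb, 6.33% held a member. Il12rb2, the signalling chain of the IL-12 receptor, held 3 with scores of 2.86 to 5.77, its neighbour Il23r held 2 with 3.195 and 4.29, and Il1rl1, the receptor of IL-33, held 1 with 2.13. Of 47 transcription factor genes, 13 did (27.7%, 15.6 to 42.6%), with a median length of 69.4 kb for the list and 3.43 members per Mb, against 5.98 over all genic sequence. Zeb1 held 4 with scores from 4.07 to 10.3, all on the unit, Ikzf2 held 2 with 3.46 and 11.1, and each other gene of the list with a member, such as Bach2 with a score of 4.84, held 1. In T cell receptor signalling, 6 of 31 genes did (19.4%, 7.45 to 37.5%), at 5.49 members per Mb and with a median length of 43.04 kb for the list. Of all protein-coding genes of 30 to 100 kb, the class of this median and of that of the transcription factor list, 19.6% held a member. The most were found in Themis with 3 and in the kinase Prkcq and the phosphatase Ptprc (CD45) with 2 each. The intervals of the first and the third list cover the share of all genes, and those of all 3 lists cover the share of genes in the length class of their median.

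Other lists show how far length and repeats go with the counts. In a list of 40 genes that code mostly for adhesion proteins and ion channels of neurons, but also include Dmd, the median length was 1119 kb. Of these, 39 held members (97.5%), 300 in all. Of all protein-coding genes 13.4% held a member, and of those above 1 Mb, the class of that median, 98.3%. The list's density of 5.98 per Mb equals that of all genic sequence (5.98). Among genes for proteins of the cytoplasmic ribosome, 0 of 92 held a member. The prefix that chose them also takes in 10 genes named Rps6k, most of which code for protein kinases, and 5 of those 10 held members. With these 10 included, the median length of the list was 3.50 kb, and of all protein-coding genes under 10 kb 0.754% held a member. Olfactory and vomeronasal receptor genes, 1466 in number, held members in 61 cases (4.16%), at 6.34 per Mb and with a median length of 6.35 kb. This share is below the 13.4% of all protein-coding genes and above the 0.754% of those under 10 kb, the class of that median. Zinc finger genes named Zfp held members in 68 of 397 (17.1%, 13.6 to 21.2%), against 13.4% of all protein-coding genes and 6.33% of those of 10 to 30 kb, the class of the list's median length of 17.4 kb. Their density was 8.67 per Mb, and 49 of their 115 members matched the LINE-1 unit. Zfp804b held the most with 5. Zfp385b and Zfp600 were among several with 4, the last with 0 on the unit in 41.9 kb.

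Scores were low for most members. They ran from 1.36 to 32.8, with quartiles of 3.06 and 5.28 and a median of 4.06, and 277 (3.82%) exceeded 10. Between genes the median was 4.01, and near another list it was 6.15. Some values of the score recur often. Of 1370 distinct values, the 8 most frequent lie between 2.13 and 7.42 and account for 2162 members (29.8%). The value 3.37 alone was found at 476 and 4.07 at 401.

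Of the 10 highest members, 5 matched the LINE-1 unit. They lie in Pdgfrl (31.4), B3galt1 (26.7), the pseudogene Mug-ps1 (26.6), Chm (26.2) and Anks1b (26.2), and each window had 6871 to 17458 near-identical copies in the assembly. The highest score, 32.8, was in an intron of Cyp2c69, a cytochrome P450 gene on chromosome 19 (position 39883333), in sequence with no lower-case base and 1 copy, on the same chromosome. Fgfr2, a fibroblast growth factor receptor gene, held the third highest (30.7), with 2 copies. An intron of Pde1a, a calcium-dependent phosphodiesterase gene, held a GC-rich window (69.0%) with a score of 29.2 and 4771 copies. Sfi1 (26.3) and a UTR of Lars2, the mitochondrial leucyl-tRNA synthetase gene (25.8), complete the list, each with 1 copy. The copy of the Sfi1 window lies outside the assembled chromosomes, and that of the Lars2 window lies on another chromosome. Near-identical copies thus number 1 or 2 in 4 of these windows and at least 4771 in the others.

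Windows that match the mitochondrial genome were 2 of the members (0.0276%, against 0.00206% of the genic background). Myo3a on chromosome 2 held both, with scores of 19.1 and 7.64 and 99% identity each to their closest copy in the assembly. They lie 1874 bp apart, and the higher one is in the pseudogene Gm13341. Ribosomal DNA was represented here by the sequence of Gm26917 alone, so windows that resemble other parts of it were not counted. The 1 member that matched it lies inside Gm26917 itself on chromosome 17 and had a score of 14.5, and the nearest summit of another list was 1142 bp away.

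A limit of 100 bp in place of 500 bp gave 7615 members, 1000 bp gave 7172, and taking out only summits on the same base gave 8528. The members nearest to another list were in Gm47578 (508 bp, score 9.89), Myo10 (517 bp, 3.37) and 1700030F04Rik (519 bp, 2.77). Just inside the limit, and so left out, were summits in 6030443J06Rik (499 bp, 2.58), Grin3a (498 bp, 3.59) and Cadps (490 bp, 2.72). The median distance from a member to the nearest summit of another list was 83310 bp, and 75 members (1.03%) had one within 1000 bp. Within the Input list itself, 305 members (4.21%) had another summit within 500 bp and 2130 (29.4%) within 10000 bp.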

How the data were processed

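Peak lists of 5 ChIP-Seq libraries were used, and the members come from the Input list. The authors deposited 1 list per library of summits of 1 bp with a score from the peak caller, in mm10 coordinates. Per the labels reads were aligned with Bowtie2, and the summit names are those of MACS2, while the methods name a version of MACS older than MACS2 for converting the alignments to BED files and FindPeaks for peak calling. The options, control and version of the peak caller are not given in the sources used here, nor is the treatment of reads that match several places. The score was used within the Input list only, to rank summits, to compare medians and quartiles and to set cuts.

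Genes came from GENCODE M21 and sequence from RefSeq's GRCm38.p6 assembly, 1-based. A summit inside several genes was classed as coding exon, UTR, other exon or intron, in that order. Windows of 200 bp were compared with blastn (BLAST 2.17.0), and a match needed 80% identity over 100 bp. Densities on matching sequence count each background position, set every 2500 bp, as 2500 bp. Computations ran in Python 3.11.15 (pysam 0.24.0, samtools 1.23.1, pandas 2.3.3, scipy 1.17.1, numpy 2.4.6, figures in matplotlib 3.10.9), and the functions were tested on simulated sequences.

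Genes were named by a rule: the 10 members with the highest score, the 10 protein-coding genes with the most members (and Sugct, tied with the last of them) and the 10 with the most per 100 kb, the 10 highest coding-exon members and at most the 3 genes with the most members of each gene list. The members, gene lists and comparisons were chosen with earlier results of these data known. The LINE-1 unit, the zinc finger linker and the copy counts were added after the data were seen.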

Additional observations from a re-analysis of the deposited data

How the results depend on the processing

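No paired analysis was possible because each library stands alone and no result comes from a test. Over 12 results and 51 alternatives, 29 values stayed within the interval of the reported share, or within 1.5 times a count, and 22 moved out of it. A score above the median of the Input list left 3219 members in 1692 protein-coding genes, and raised the share in masked windows from 94.1% to 95.6%, in simple repeats, on the unit or not, from 10.2% to 12.3%, on the LINE-1 unit to 73.8% and of the linker among coding members to 76.2%. With protein-coding genes only, the genic share was 26.4% and the intron share 97.4%, and with the same base as the limit the genic share was 34.4%. Windows of 400 bp gave 93.4% masked and 8.58% simple repeats, and windows of 100 bp gave 11% simple repeats. The ratio of X to autosomes was 1.19 per masked genic base. Families joined at 70% identity held 80.4% of the members, at 90% identity 50.9%, and families of at least 50 members held 70.8%. The antisense share was 63.6% at 90% identity. The LINE-1 share depended most on identity, at 80.1% for 70% and 30.04% for 90% identity, with 70.6% for at least 50 bp aligned, 61.1% for at least 150 bp and 66.5% for the other unit. The background share moved with it, so that members matched 9.54 to 13.3 times as often as background positions. Without 1 of the other lists, members numbered 7249 to 7987, most without the PU.1 list. These alternatives on the LINE-1 unit, the linker and single lists were chosen after seeing the data. With 1 library and unknown depth, no value has a replicate error, and the lack of a summit sets no limit on the reads at a place.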
